A study of Homo sapiens with 6 samples.

Results

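The genes described here carry iron into the cell, store it and let it out again. They were measured in K562 cells, a long-established human line labelled as erythroleukemia. The set was defined by symbol, with earlier results of these data known. It holds the transferrin receptors TFRC and TFR2, the reductase STEAP3, the importer SLC11A2 and the ferritin chains FTH1 and FTL. The ferritin receptor NCOA4, the exporter SLC40A1, and the iron regulatory proteins ACO1 and IREB2 complete it. Of these 10 genes, 8 had a row under their symbol among the 17687 named genes of the array, each a single probe set. FTH1 and IREB2 were not analysed here. The study compared 3 arrays of K562 cells carrying a control vector with 3 arrays of K562 cells carrying a vector that overexpresses the microRNA miR-543, and asked which mRNAs differ. Both groups are the same line with the same label of genotype (erythroleukemia). The vector backbone, the time after its introduction and the level of miR-543 reached are not given in the sources used here. Nor is it said whether each replicate was its own culture, and the p-values therefore rest on a spread between arrays that may be technical.

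Red cell precursors import large amounts of iron because each haem molecule holds an iron atom. Iron arrives bound to transferrin, enters with the transferrin receptor, is reduced in the endosome and crosses into the cytosol. What is not used is kept in ferritin shells, from which NCOA4 can release it by delivering ferritin to the lysosome, or it leaves through the exporter ferroportin. When iron is short, the iron regulatory proteins bind hairpins in mRNAs called iron-responsive elements. Binding near the start of an mRNA, as in FTL, SLC40A1 and ALAS2, blocks translation, while binding near its end, as in TFRC, protects the mRNA from decay. Arrays of total RNA read the second kind of control and not the first.

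A pair of sequences is useful for reading the values that follow. The first is mature miR-543 as recorded in RefSeq, not read from the vector. It is shown because its seed is the part that pairs with target mRNAs. It lies on chromosome 14 at chr14:101032033-101032054 on the plus strand (GRCh38.p14, RefSeq), and capitals mark the seed, bases 2 to 8. No other of the 2370 mature microRNA names in the RefSeq table had the same seed, AACAUUC. Matches of the seed in the ends of the iron mRNAs were not analysed here.
hsa-miR-543: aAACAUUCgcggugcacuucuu

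The second shows where the iron regulatory proteins bind, in a member and in ALAS2, which makes the first haem precursor in red cells. The first 50 transcribed bases of each gene in the RefSeq promoter table (GRCh38.p14) were searched, on the transcribed strand, for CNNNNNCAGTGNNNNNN in which the 5 bases before the loop CAGTGN pair with the 5 after it, G with U pairs allowed. The short loop start CAGTG alone stood in that window of 8.09% of 27305 genes, and the paired hairpin in 8 genes, or 0.0293%. On the opposite strand it was found in 5 genes. Of 10 genes known for iron-responsive elements, 8 had a window and the hairpin was found in FTL, from transcribed base 33 (chr19:48965337-48965358, plus strand), and in ALAS2, from transcribed base 15 (chrX:55030943-55030967, minus strand). The elements of TFRC lie near the end of its mRNA, outside such a window. SLC40A1, described above with an element near the start of its mRNA, was among the genes without a match. The search read only 50 bases and a single form of the hairpin, so a gene without a match may still carry an element. Capitals mark the loop, and each coordinate range covers the bases printed.
FTL: cttgcttcaaCAGTGTttggac
ALAS2: cgttcgtcctCAGTGCagggcaaca

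Signals are the authors' deposited log2 values, with array medians of 5.99 to 6.01 and upper quartiles of 9.61 to 9.66. The 8 genes were above the median on every array. Taken over probe sets, which are no replicates of each other, Pearson's r was 0.9945 to 0.9957 within groups and 0.9931 to 0.9951 between them. In the limma fit over all 21448 probe sets, 122 were called at a Benjamini-Hochberg adjusted p under 0.05, which is 0.569%. The erythroid identity in the label was borne by high signals of the transcription factor GATA1 (15.57 to 15.75) and the embryonic globin chain HBZ (15.33 to 15.97). KLF1, a regulator of red cell genes, lay at 6.75 to 6.87 and 7.31 to 7.67 with the control and miR-543 vectors (adjusted p = 0.106). All 9 measured erythroid markers had a log2 change above 0, as 52.3% of all probe sets did, with 0 called. Of the 9, 3 had an unadjusted limma p under 0.05 (10.6% of all probe sets). In 4 all miR-543 arrays were above all control arrays (7.89% of all probe sets). Their mean signal was 11.76 to 11.93 in the control arrays and 12.05 to 12.16 in the miR-543 arrays. Among markers of other cells, those of the macrophage list differed in signal: CD14 and CD163 read 4.19 to 5.38, while CD68 (11.56 to 12.10) and LYZ (15.07 to 15.36) were bright on all 6 arrays. The epithelial marker EPCAM read 13.37 to 13.84. CD3D of T cells read 10.41 to 10.79 in control and 11.03 to 11.42 in miR-543 arrays (adjusted p = 0.184). The other 3 measured lymphoid markers had log2 changes below 0, and among them PTPRC, a surface phosphatase of white blood cells, read 12.83 to 13.09 and 12.56 to 12.61 (adjusted p = 0.429). CD68, LYZ and PTPRC were named after their values were seen. Mean signals of the macrophage list were 7.10 to 7.35 in control and 7.15 to 7.49 in miR-543 arrays, of the lymphoid list 7.86 to 7.99 and 7.91 to 8.06, and of the epithelial list 11.54 to 11.62 and 11.56 to 11.65. Of these lists 7, 4 and 5 genes were measured, 0 were called, and their part in the results was not tested.

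None of the 8 iron genes passed the limma test with the miR-543 vector (0 called, beside 0.569% of all probe sets, and 1 at an unadjusted p under 0.05). The value farthest from 0 was that of NCOA4, which was lower on all 3 miR-543 arrays and averaged 71.9% of the control level. ACO1 and FTL were higher on all 3 miR-543 arrays, at 119% and 116% of control. TFRC, TFR2, STEAP3, SLC11A2 and SLC40A1 had overlapping groups. All 8 intervals excluded a 2-fold difference in either direction.

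**Figure D1:**
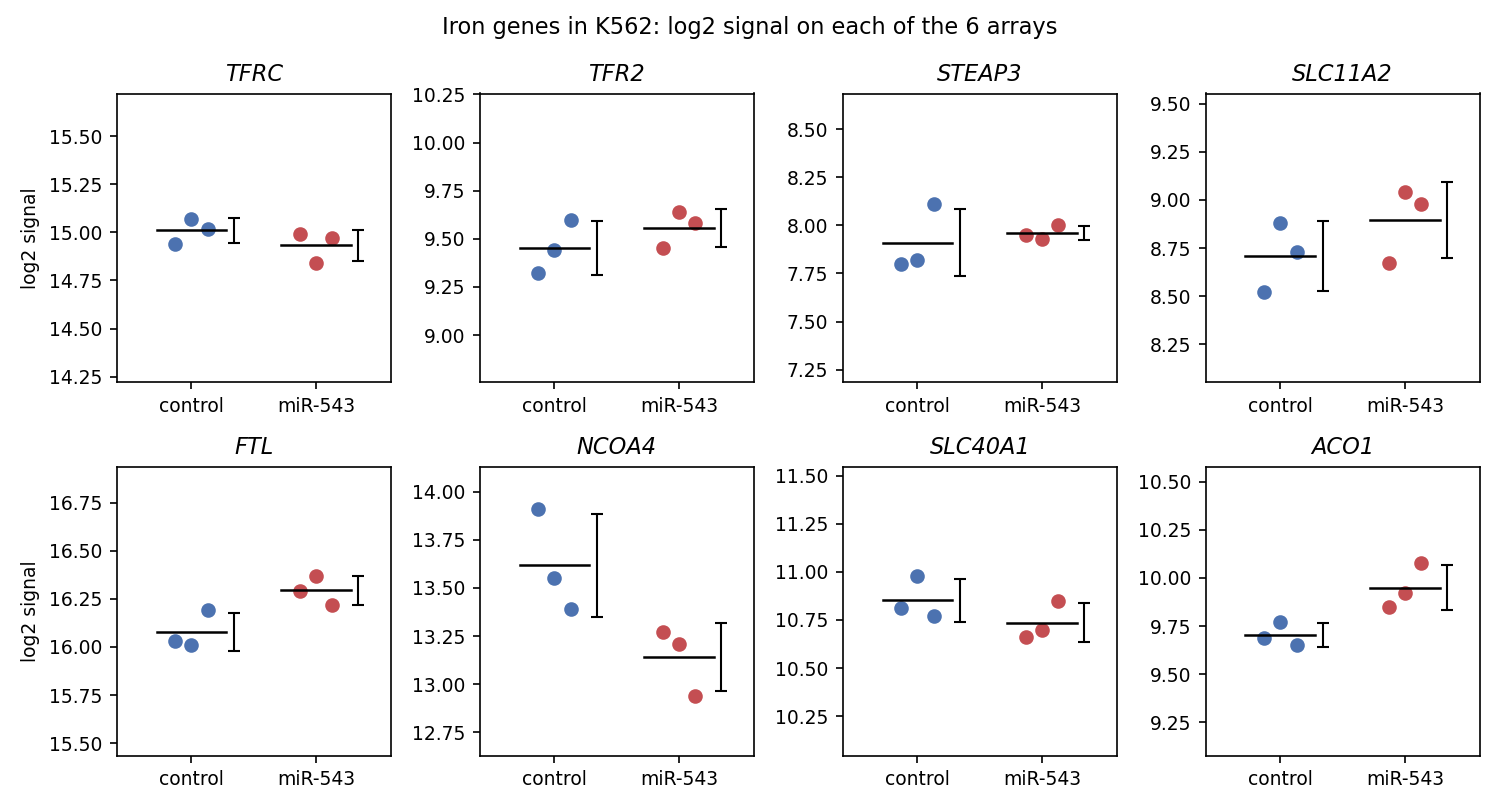
Log2 signal (vertical axis, a span of 1.5 in every panel, each panel with its own level) of the 8 measured iron genes on the 3 control and 3 miR-543 arrays; each point is an array, the horizontal line is the group mean and the bar beside it is ± 1 SD. The groups separate for NCOA4, FTL and ACO1 and overlap in the other 5 panels.

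Uptake begins with TFRC, transferrin receptor 1, which carries iron-loaded transferrin into every dividing cell and abundantly into red cell precursors (probe set TC0300013684.hg.1, chromosome 3). The control arrays read 14.94, 15.07 and 15.02 and the miR-543 arrays 14.99, 14.84 and 14.97. The groups overlapped, and the lowest value was a miR-543 array. Group means were 15.01 ± 0.066 and 14.93 ± 0.081 (SD, n = 3), a log2 change of -0.08 (SE 0.13) with a 95% interval of -0.37 to 0.22. As a level, that is 94.8% of control with an interval of 77.2% to 116%. The limma adjusted p was 0.897.

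TFR2, the second transferrin receptor, binds transferrin more weakly and senses iron in liver and erythroid cells (TC0700012010.hg.1, chromosome 7). It read 9.32, 9.44 and 9.60 with the control vector and 9.45, 9.64 and 9.58 with the miR-543 vector. Only the third control array stood inside the range of the miR-543 group. Its log2 change was 0.10 (SE 0.14, 95% interval -0.21 to 0.42, adjusted p = 0.859), from 9.45 ± 0.14 to 9.56 ± 0.097 (SD, n = 3).

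STEAP3 is the endosomal reductase that turns ferric into ferrous iron (TC0200009060.hg.1, chromosome 2). Control arrays read 7.80, 7.82 and 8.11 and miR-543 arrays 7.95, 7.93 and 8.0. All the miR-543 values lay within the control range, whose upper end was set by the third control array. The log2 change was 0.05 (SE 0.14, 95% interval -0.27 to 0.37, adjusted p = 0.939), and without control replicate 1 the change was -0.005, so no direction can be given.

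SLC11A2, also called DMT1, carries the ferrous iron across the endosomal membrane (TC1200010686.hg.1, chromosome 12). It read 8.52, 8.88 and 8.73 with the control vector and 8.67, 9.04 and 8.98 with the miR-543 vector. The miR-543 arrays included the 2 highest values and also the second lowest. The SDs of 0.18 and 0.20 (n = 3) were as large as the log2 change of 0.19 (SE 0.16, 95% interval -0.17 to 0.54, adjusted p = 0.745). The gene makes mRNAs with and without an iron-responsive element, and a single value per gene does not separate them.

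For storage, FTL encodes the light chain of ferritin, which helps iron settle as mineral inside the shell (TC1900008507.hg.1, chromosome 19). The control arrays read 16.03, 16.01 and 16.19 and the miR-543 arrays 16.29, 16.37 and 16.22. The groups did not overlap, by a margin of 0.03 between the third control array and the third miR-543 array. Means were 16.08 ± 0.099 and 16.29 ± 0.075 (SD, n = 3), a log2 change of 0.22 (SE 0.14, 95% interval -0.08 to 0.52, adjusted p = 0.631). Ferritin genes have processed pseudogenes whose transcripts probes may share, which leaves this value less certain. The hairpin printed above governs translation of FTL mRNA, which these arrays did not measure.

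NCOA4 is the receptor that delivers ferritin to the lysosome, where its iron is freed, a step that red cell precursors use to supply haem synthesis (TC1000010515.hg.1, chromosome 10). The control arrays read 13.91, 13.55 and 13.39 and the miR-543 arrays 13.27, 13.21 and 12.94. Every miR-543 value was below every control value, with 0.12 between the nearest arrays. The means were 13.62 ± 0.27 and 13.14 ± 0.18 (SD, n = 3), the control SD being the largest among the 8 genes. The log2 change was -0.48 (SE 0.17), with a 95% interval of -0.86 to -0.09 that is not adjusted for the number of probe sets. That is a level of 71.9% of control, with an interval of 55.1% to 93.7%. NCOA4 had an unadjusted p of 0.0194 and did not pass over all probe sets (limma adjusted p = 0.367). An unadjusted p under 0.05 was reached by 10.6% of all probe sets. The first control array was the highest, and without it the log2 change was -0.33 (adjusted p = 0.749). Over the 12 alternative settings the adjusted p ran from 0.111 to 0.749.

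Export is by SLC40A1, ferroportin, the iron exporter of animal cells and the target of the hormone hepcidin (TC0200015211.hg.1, chromosome 2). It read 10.81, 10.98 and 10.77 with the control vector and 10.66, 10.70 and 10.85 with the miR-543 vector. The third miR-543 array lay inside the control range, and the other two lay below it. The log2 change was -0.12 (SE 0.14, 95% interval -0.43 to 0.19, adjusted p = 0.833), from 10.85 ± 0.11 to 10.74 ± 0.10 (SD, n = 3).

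ACO1 is the protein that serves as cytosolic aconitase when it holds an iron-sulphur cluster and as iron regulatory protein 1 when it does not (TC0900006937.hg.1, chromosome 9). Control arrays read 9.69, 9.77 and 9.65 and miR-543 arrays 9.85, 9.92 and 10.08. All miR-543 values were above all control values, by at least 0.08. The log2 change was 0.25 (SE 0.14, 95% interval -0.06 to 0.55) and the adjusted p 0.571, from 9.70 ± 0.061 to 9.95 ± 0.12 (SD, n = 3).

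**Figure D2:**
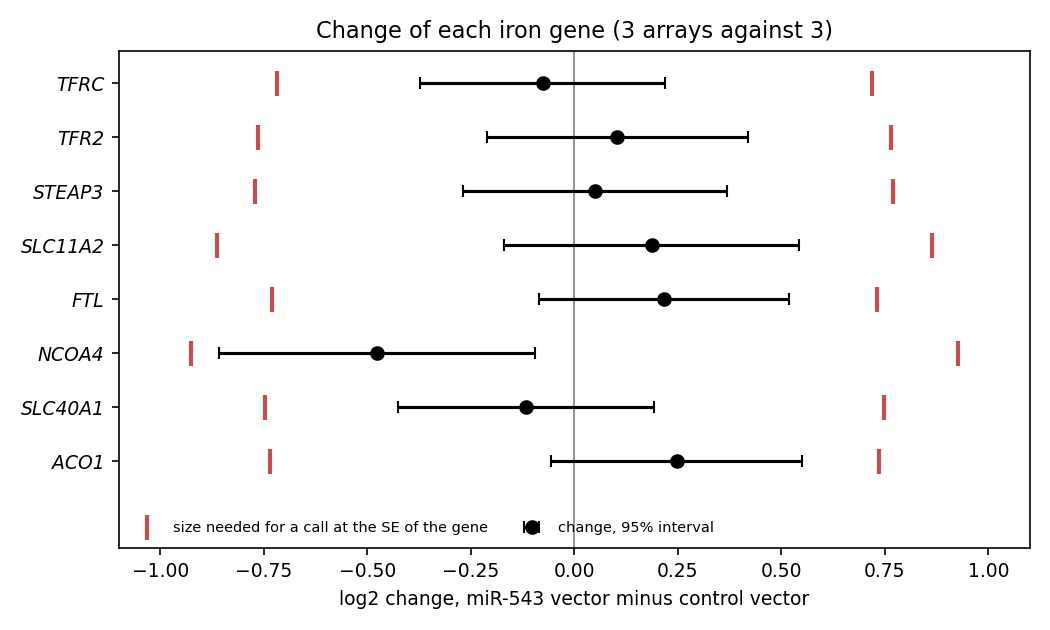
Log2 change (horizontal axis, miR-543 vector minus control vector) of the 8 iron genes, with points for the estimate, black bars for the 95% interval and red ticks for the size that would have been called at the standard error of that gene. Every point lies inside its red ticks, which stand at 0.72 for TFRC and 0.93 for NCOA4, and the NCOA4 interval alone leaves out 0.

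Side by side, 5 of the 8 genes had a log2 change above 0 and 3 below, beside 52.3% and 47.1% of all probe sets. Their median was 0.08, against 0.01 over all probe sets. The median size of change, sign left aside, was 0.15 for the 8 genes and 0.14 for all probe sets. Groups did not overlap for 3 of the 8, ACO1 and FTL upward and NCOA4 downward, where 15.4% of all probe sets did not overlap (7.89% upward and 7.5% downward). With 8 genes these counts describe the set and do not mark it out from other genes.

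What the arrays could show sets the limit of these values. The least significant call had an unadjusted p of 0.000283. At the standard errors of the 8 genes, a log2 change between 0.72 (TFRC) and 0.93 (NCOA4) was needed for a call. Intervals within a log2 change of 0.5 in both directions were found for 4 genes, TFRC, TFR2, STEAP3 and SLC40A1. For SLC11A2, FTL and ACO1 the upper bounds were 0.54, 0.52 and 0.55, and for NCOA4 the lower bound was -0.86. Differences up to these bounds were not excluded by the intervals. A lower signal in bulk RNA can mean fewer cells with the mRNA or less of it per cell, and these cannot be told apart.

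Other genes of iron handling were read from 7 lists arranged by role, 56 genes of which 50 were measured. With limma 0 were called (0.569% of all probe sets) and 6 had an unadjusted p under 0.05 (10.6% of all probe sets). Of the 50, 31 lay above 0 and 19 below, where 52.3% and 47.1% of all probe sets did, and the median log2 change was 0.09. Groups did not overlap for 9 upward and 4 downward, beside the 7.89% and 7.5% of all probe sets.

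Export had the value farthest above 0. HEPH, hephaestin, a copper ferroxidase that oxidises iron as it leaves through ferroportin, read 11.37, 11.06 and 11.50 in control arrays and 11.87, 12.02 and 11.84 in miR-543 arrays. All miR-543 arrays were higher, and the log2 change was 0.60 (SE 0.16, 95% interval 0.25 to 0.95). HEPH did not pass (adjusted p = 0.186) except with limma's trend and robust settings (adjusted p = 0.0327). Its plasma counterpart CP, ceruloplasmin, had a log2 change of 0.57 (adjusted p = 0.466), with a single miR-543 array at 4.84 and the other 5 arrays between 3.48 and 4.08, and without that array it was 0.25. ABCG2, a transporter that exports porphyrins, had a log2 change of 0.21 (adjusted p = 0.636), with every array between 3.27 and 3.62, below the array lower quartiles. Of the 6 export genes 4 lay above 0, with a median of 0.22.

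Among 13 further uptake genes 8 lay above 0 (median 0.09). SLC39A8, a zinc transporter that also carries iron, had a log2 change of 0.34 (adjusted p = 0.434) and groups that did not overlap, 8.85 to 9.06 against 9.15 to 9.41. CYBRD1, a ferric reductase of the gut surface, had one of -0.26 (adjusted p = 0.631), which was -0.10 without miR-543 replicate 3. SLC11A1, the phagosome relative of SLC11A2, read 3.89 on all 3 miR-543 arrays, below the lower quartiles of 3.98 to 4.03, so its log2 change of -0.35 (adjusted p = 0.627) is a difference among dim signals. Without control replicate 1, which read 4.79, it was -0.07. Of 4 measured genes of storage and iron delivery 3 lay above 0 (median 0.18). HERC2, the ubiquitin ligase that targets NCOA4 for degradation, had a log2 change of 0.38 (95% interval 0.02 to 0.73, adjusted p = 0.442). PCBP1, the chaperone that loads iron into ferritin, had one of 0.14 (adjusted p = 0.773), and FTMT, mitochondrial ferritin, lay below 4 and had one of 0.22 (adjusted p = 0.765), which was 0.038 without miR-543 replicate 1.

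Of 6 measured genes that control the iron regulatory proteins or carry an iron-responsive element, 5 lay above 0 (median 0.08). ALAS2, whose hairpin is printed above, read 12.38, 12.77 and 12.47 in control arrays and 12.99, 12.91 and 12.92 in miR-543 arrays. Its groups did not overlap, and the log2 change was 0.40 (SE 0.15, 95% interval 0.07 to 0.73, adjusted p = 0.385). The 9 measured erythroid markers also lay above 0, with a median log2 change of 0.31, and their part in the ALAS2 value was not tested. FBXL5, the iron sensor that marks the iron regulatory proteins for degradation, had a log2 change of 0.20 (adjusted p = 0.686). CDC14A, a phosphatase with an iron-responsive element in some transcripts, had one of -0.14 (adjusted p = 0.801), which was -0.06 without control replicate 1.

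Of the 8 hepcidin control genes 5 lay below 0 (median -0.03). NEO1, neogenin, which binds hemojuvelin, a protein of hepcidin control, read 7.50, 7.57 and 7.27 in control arrays and 6.49, 6.82 and 7.16 in miR-543 arrays. The groups did not overlap, and the log2 change of -0.62 (SE 0.18, 95% interval -1.03 to -0.21) did not pass (adjusted p = 0.263). BMP6, the growth factor that induces hepcidin in liver, had a log2 change of 0.48 and FURIN, a protease that cleaves hemojuvelin, one of -0.17 (adjusted p = 0.587 and 0.712). BMP6 lay under 5 on every array, and its change was 0.16 without miR-543 replicate 2.

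In the mitochondrial list 5 of 7 measured genes lay above 0 (median 0.12). GLRX5, a glutaredoxin of iron-sulphur cluster transfer, had a log2 change of 0.28 and LYRM4, which steadies the cluster-building desulphurase, one of -0.26 (adjusted p = 0.52 and 0.573). Neither pair of groups overlapped. SLC25A28, a mitochondrial iron importer, had a log2 change of 0.20 (adjusted p = 0.791), and of 0.045 without control replicate 2. Of 6 genes of haem breakdown and haem transport 3 lay above 0 (median 0.02). BLVRB, a biliverdin reductase, had a log2 change of 0.21 and non-overlapping groups (adjusted p = 0.636). HPX, the haem-binding plasma protein, had one of -0.34 (adjusted p = 0.616), which was -0.17 without miR-543 replicate 3. HMOX1, the inducible haem oxygenase, had one of -0.22 (adjusted p = 0.741) at signals under 4, and one of -0.045 without control replicate 3.

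**Figure D3:**
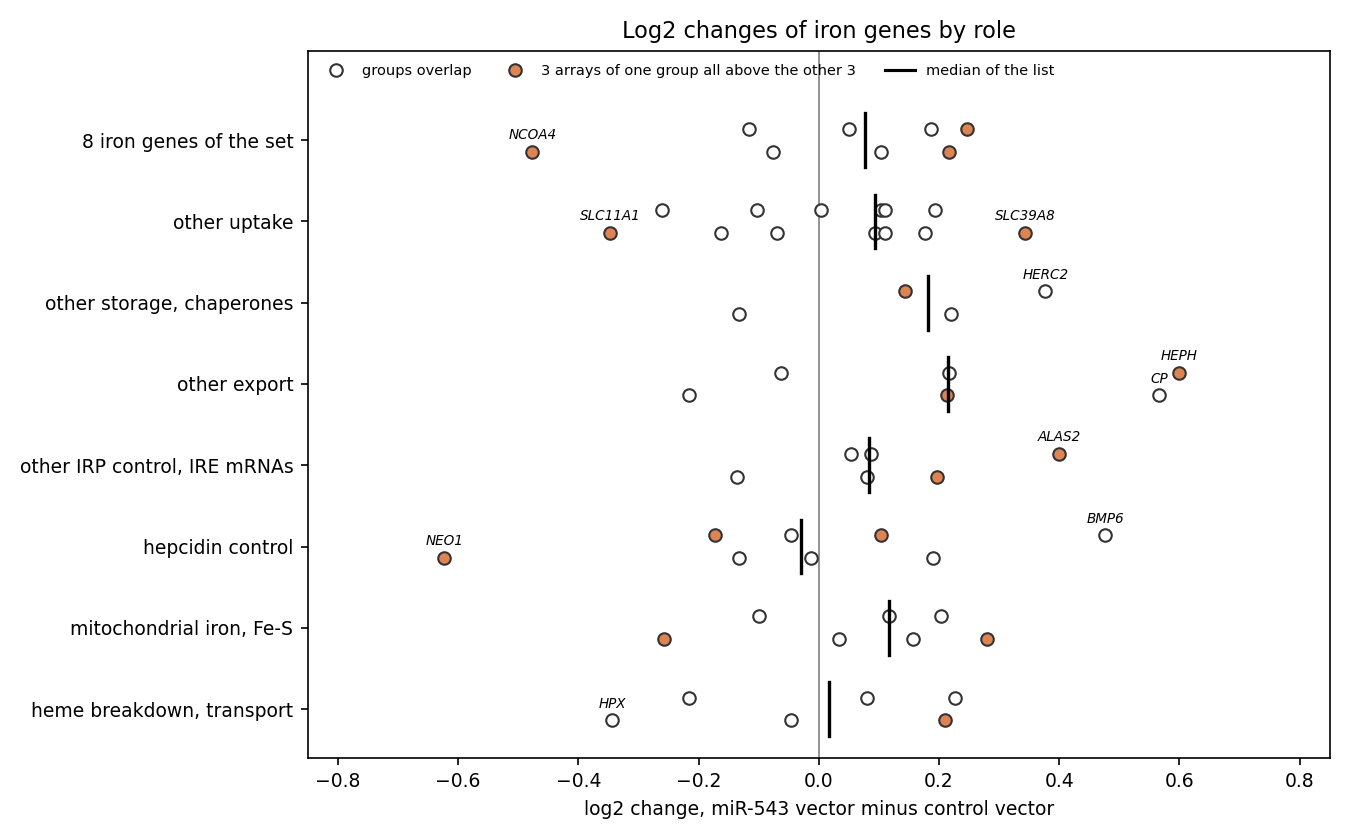
Log2 change (horizontal axis, miR-543 vector minus control vector) of the 8 iron genes in the top line and of 50 other iron genes in 7 lists below, each point a gene and each black line the median of its list. Filled points are genes whose 3 arrays in one group all lay above the 3 of the other; none of the points passed the test, and HEPH at 0.60 and NEO1 at -0.62 lie farthest out.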

How the data were processed

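The authors deposited normalized log2 signals, 1 value per probe set, for 6 arrays. Transcriptome Analysis Console 4.0 and RMA are named in the submitters' processing notes; the annotation and genome build are not given in the sources used here. Gene names came from the platform annotation, matched by identifier to the RefSeq table of GRCh38.p14: 17709 probe sets had 1 symbol, 0 had several and 3739 were unnamed here. All 21448 probe sets were fitted with limma 3.58.1 in R 4.3.3 (lmFit and eBayes, no trend, filter or block). Tests were two-sided, adjusted by Benjamini-Hochberg over all probe sets and called under 0.05; SE is the moderated standard error. The steps were checked on simulated data with 50 changed probe sets at each size. Of true log2 changes of 0.5, 4% were called, of 1, 64%, and of 2, 100%. Named besides the 8 measured genes were, for each list, genes that passed and the 3 with the smallest p; markers were named from a fixed list, except 3 chosen after their values were seen. The members and lists were chosen with earlier results of these data known. Alternatives were 2 rescalings, trend and robust settings, filters at the 25th and 50th percentile of mean signal, a replicate block and leaving out each array. The number of arrays limits the precision.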

Additional observations from a re-analysis of the deposited data

How the results depend on the processing

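Under all 12 alternative settings (quantile normalization, equal medians, trend and robust settings, 2 filters on dim probe sets, the replicate block, and each of 6 arrays left out) 0 of the 8 iron genes were called. Of their 96 values in those settings 95 kept their sign; STEAP3 had -0.005 without control replicate 1 and a range of -0.005 to 0.15 with an array left out. Calls over all probe sets were 122, 252 with trend and robust settings, 71 with the replicate block, and 34 to 59 with an array left out, where fewer arrays were fitted. Among the other iron genes 0 were called except 1, HEPH, with trend and robust settings. Whether same-numbered replicates were paired is not said in the labels. Deviations of same-numbered arrays correlated at 0.095, -0.053 and 0.018, and those of other pairs at -0.094 to 0.066. Deviations from means of 3 arrays cannot settle whether a culture or day was shared. The replicate block called 0 iron genes. None of the iron genes named had several rows, so the mean over rows was not run. Of the 21 other named iron genes, 6 were removed by the 50th-percentile filter and 5 by the 25th.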

Other observations

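Besides FTL and ALAS2, the paired hairpin stood in the first 50 transcribed bases of CTBP1, CEP43, F10, PGLYRP2, CCDC116 and 1 uncharacterised locus without a probe set, a group found by the search and not by the naming rule. Log2 changes were -0.12 for CTBP1, a corepressor, 0.25 for CEP43, a centrosomal protein, 0.06 for the clotting factor F10, 0.07 for PGLYRP2 and 0.11 for CCDC116. Of the 7 genes with a probe set 6 lay above 0, beside 52.3% of all probe sets. Their median was 0.11, against 0.01 over all probe sets. With limma 0 were called (0.569% of all probe sets). The smallest unadjusted p was that of ALAS2 (0.0222, the 1 under 0.05, which 10.6% of all probe sets reached). With 7 genes these counts describe the group and do not mark it out from other genes. Whether these hairpins bind iron regulatory proteins was not tested.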
